A study of Mus musculus with 6 samples.

Results

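The genes described are 10 components of the ATF4-CHOP branch of the integrated stress response, taken by name: the transcription factors Atf4, Atf5, Atf3 and Ddit3 (which encodes CHOP), and the effectors Trib3, Chac1, Nupr1, Ppp1r15a, Sesn2 and Gdf15. All 10 were found among the 17872 genes of the count table, and 9 had enough reads to be tested. The samples were RNA-seq libraries of BV2, an immortalised mouse microglial line. The control group was labelled WT (n = 3) and the other group Tfam knockout (n = 3), made with CRISPR-Cas9, with no other treatment named for either. The puromycin culture at 2 µg/mL after editing stands in the protocol of every sample, so it is not clear whether the controls received it. Nothing says whether a single clone or a pool of edited cells was grown, or whether replicates came from separate cultures. P-values therefore reflect only the variation among these libraries, and that variation may be technical.

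In the integrated stress response, kinases that sense different stresses phosphorylate the translation factor eIF2alpha, which lowers protein synthesis in general while the mRNA of ATF4 is translated more. ATF4 then switches on genes for amino acid supply together with ATF5, CHOP, ATF3 and feedback factors. Because ATF4 and ATF5 are controlled largely at translation, their mRNA levels do not report the amount of protein. Damaged mitochondria are a known trigger of the pathway, and GDF15 is used as a secreted marker of mitochondrial disease.

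Library totals ran from 13850691 to 28418133 counts. Tfam, the targeted gene, was at 38.2 ± 1.01 CPM in controls and 42.3 ± 1.15 in the other group (log2 fold change 0.14, adjusted p = 0.193, edgeR's quasi-likelihood test), so its mRNA does not show the knockout and the second group is called the labelled knockout throughout. CPM are counts scaled to a common library size with edgeR's TMM factors, given as mean ± SD over 3 libraries. Transcripts of the mitochondrial genome, which Tfam is known to serve, took 3.52% to 4.31% of counts in controls and 1.37% to 1.42% in the labelled knockout. Of 12 microglia and macrophage markers, 10 were measured, Itgam and P2ry12 being not analysed here. Their summed level was 3117 to 3520 CPM in controls and 2151 to 2391 in the labelled knockout, led by Cd68. The difference was uneven, with mean Csf1r at 501 and 182 CPM but Ptprc at 263 and 252. Tmem119, Cx3cr1 and Aif1 added little to the sum, with means of at most 2.97 CPM in either group. Marker sums were at most 3.13 CPM for neurons (3 of 6 measured) and 1.78 CPM for astrocytes (3 of 6, without Gfap and Aqp4). Fibroblast markers (1 of 5) reached 2.55 CPM and endothelial ones (4 of 5) 12.1 CPM. The sum over all 6 oligodendrocyte markers was 62.8 to 66.3 CPM in controls and 36.1 to 42.4 in the labelled knockout, led by Cnp, which is not confined to that cell type. All libraries were of the BV2 line, so these sums are read as RNA levels in BV2 cells, not as numbers of other cell types. The part of these shifts in the results was not tested. In bulk RNA, a lower level in all cells and in only some of them cannot be told apart.

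Short promoter stretches are shown first, because ATF4 is known to bind, as a dimer with C/EBP proteins, a composite element whose core reads TGATGNAA, where N is any base. This core was searched on both strands of RefSeq promoter windows (GRCm38.p6, another build than the authors' GRCm39), which run from 250 bases before to 50 after each start site. All 10 genes matched a window, and Atf5 and Gdf15 had more than one, giving 12 windows. The core was found in 4 of the 12 windows, those of Atf3, Chac1, Nupr1 and Trib3, against 3.97% of 32851 distinct windows of all genes. The palindromic cyclic AMP response element TGACGTCA, which ATF and CREB factors bind, was found in the Ppp1r15a window and in 1.79% of all windows. The AP-1 site TGANTCA was found in the Ddit3 window and in 7.81% of all. No match shared bases with another. Each stretch reads 5′ to 3′ in the direction of the gene, with the match in capitals. In Atf3, Chac1, Nupr1 and Trib3 the match lies on the opposite strand, so that it appears as its reverse complement. The Ddit3 and Gdf15 stretches, the last bases before their start sites, are shown because these genes changed most. These stretches hold neither the ATF4 core nor the cyclic AMP element. Bases outside the windows were not searched, so a match farther from a start site would have been missed.
Atf3 (chr1:191183410-191183469, minus strand): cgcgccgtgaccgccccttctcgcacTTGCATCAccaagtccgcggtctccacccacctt
Chac1 (chr2:119351023-119351082, plus strand): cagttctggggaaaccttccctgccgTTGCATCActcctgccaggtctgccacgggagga
Nupr1 (chr7:126625547-126625606, minus strand): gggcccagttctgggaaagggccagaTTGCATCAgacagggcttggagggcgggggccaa
Trib3 (chr2:152344028-152344057, minus strand, just after the start site): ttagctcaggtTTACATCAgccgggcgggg
Ppp1r15a (chr7:45526269-45526306, minus strand): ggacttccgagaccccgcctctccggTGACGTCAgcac
Ddit3 (chr10:127290733-127290792, plus strand): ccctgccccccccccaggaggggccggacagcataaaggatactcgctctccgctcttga
Gdf15, upstream start (chr8:70632457-70632516, minus strand): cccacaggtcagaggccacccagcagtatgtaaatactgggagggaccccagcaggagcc
Gdf15, downstream start (chr8:70632096-70632155, minus strand): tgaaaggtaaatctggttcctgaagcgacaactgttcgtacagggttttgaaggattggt

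The comparison asks whether these genes differ between BV2 cells targeted for Tfam and controls. Of the 9 tested genes, 5 rose (Gdf15, Ddit3, Trib3, Nupr1 and Atf4), 1 fell (Atf5) and 3 did not pass (Atf3, Sesn2 and Ppp1r15a). A gene passed where edgeR's quasi-likelihood test gave it an adjusted p under 0.05. Across all 13403 tested genes 44.2% were called, 21.3% as higher and 22.9% as lower, so a call by itself is common in these data. Higher genes made up 48.2% of all calls with TMM factors and 61.8% with library totals alone. A stricter test, against a change of 1.5-fold (edgeR's glmTreat), was passed by Gdf15, Ddit3 and Trib3, that is by 3 of 9, all higher, and by 8.16% of all genes (2.9% as higher). The same 3 genes rose at least 2-fold, as did 2.97% of all genes. Control and labelled knockout libraries did not overlap for 6 of the 9, of which 5 were higher, and for 52.9% of all genes, of which the higher ones made up 26.3% of all genes. The median log2 fold change was 0.40 over the 9 genes and 0.00 over all tested genes. The 9 were not of one direction: their log2 fold changes ran from -0.46 for Atf5 to 1.88 for Gdf15.

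**Figure D1:**
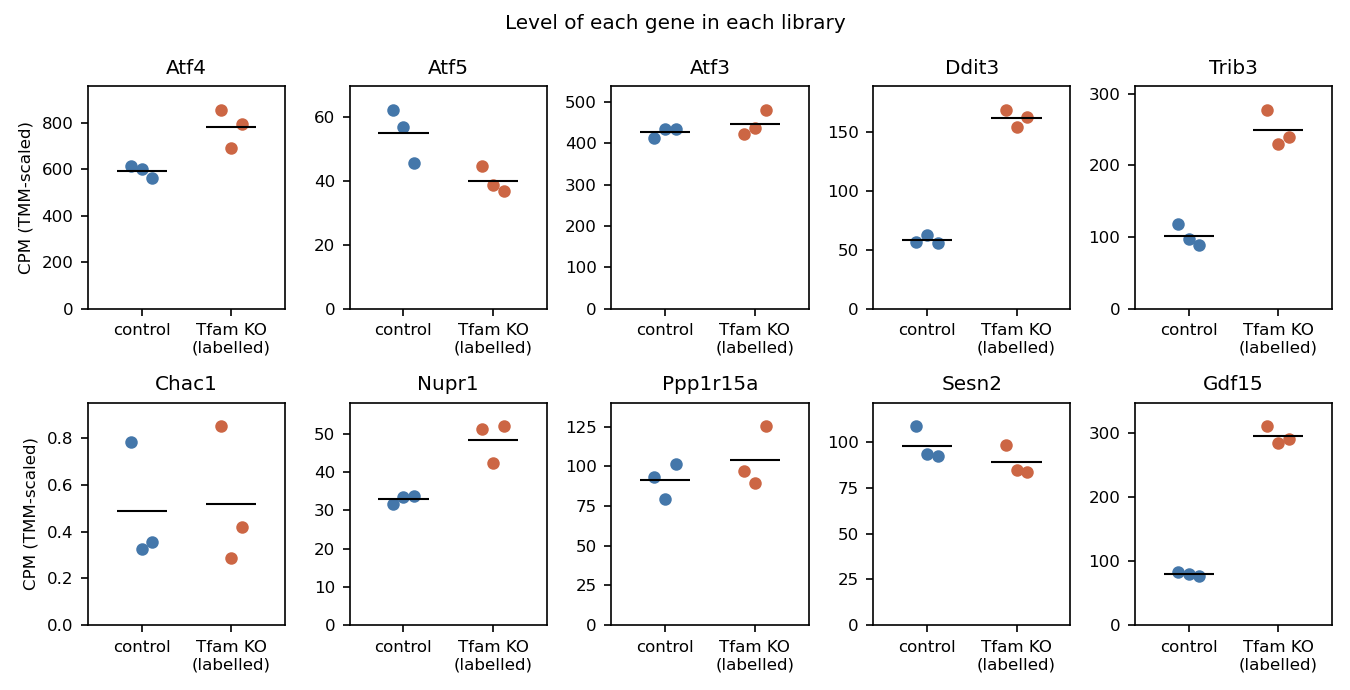
Level of each of the 10 genes in each library, in TMM-scaled CPM on axes that start at 0; points are libraries and lines group means (n = 3). Gdf15, Ddit3 and Trib3 are well separated, with Gdf15 at 77.3 to 83.6 CPM in controls and 285 to 311 in the labelled knockout, while Atf3, Sesn2, Ppp1r15a and Chac1 overlap.

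Among the transcription factors, Atf4 itself, the bZIP activator at the head of the branch, rose by a small step. Atf4 was at 612, 599 and 563 CPM in controls 1 to 3 and at 856, 692 and 793 CPM in labelled knockouts 1 to 3. All labelled knockout libraries were above all controls, with replicate 2 nearest to them. The means were 591 ± 25.6 and 780 ± 82.7 CPM, a log2 fold change of 0.40 ± 0.088 (SE; 1.32-fold; adjusted p = 0.00137, edgeR). In all, 2421 tested genes had a larger log2 fold change than Atf4.

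Ddit3, whose product CHOP dimerises with C/EBP proteins and is linked to cell death under prolonged stress, was at 56.6, 62.6 and 55.4 CPM in controls and at 169, 155 and 163 CPM in labelled knockouts. The groups lay far apart beside the narrow spread within each. Ddit3 rose 2.79-fold, from 58.2 ± 3.85 to 162 ± 7.18 CPM (log2 fold change 1.48 ± 0.0767, adjusted p = 1.11e-10, edgeR), and 139 tested genes had a larger log2 fold change. By the GENCODE M21 annotation Ddit3 shares 68 of its 1713 exonic bases with the opposite-strand gene Mars, and the library kit does not mark strand. Mars was at 190 ± 15.1 and 239 ± 5.59 CPM.

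Atf5, a close relative of ATF4 that is also translated under stress and is known for a role in the mitochondrial stress response, moved the other way. Atf5 was at 62.4, 57.1 and 45.7 CPM in controls and 44.6, 38.7 and 37.0 CPM in labelled knockouts. The groups did not overlap, but control 3 and labelled knockout 1 nearly met. Means were 55.1 ± 8.51 and 40.1 ± 3.99 CPM, and Atf5 fell, with a log2 fold change of -0.46 ± 0.112 (adjusted p = 0.00292, edgeR). When transcript length and GC content entered as offsets, an alternative added after the data were seen, the value was -0.28 and only just passed (adjusted p = 0.0489). Of its 1993 exonic bases 82 are shared with opposite-strand Il4i1, which was at 0.785 ± 0.275 and 1.56 ± 0.593 CPM, and as many with Nup62, which was not analysed here.

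Atf3, a stress-induced bZIP factor that is also an early response gene, was among the most abundant of the 10 in both groups and did not pass. It was at 414, 435 and 435 CPM in controls and 423, 436 and 481 CPM in labelled knockouts. The groups overlapped, and labelled knockout 3 was the highest library. The log2 fold change of Atf3 was 0.06 ± 0.0776 (adjusted p = 0.56, edgeR).

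Of the effectors, Trib3, a pseudokinase that binds ATF4 and CHOP and restrains them, was at 119, 97.8 and 88.5 CPM in controls and at 278, 229 and 240.2 CPM in labelled knockouts. The lowest labelled knockout lay clear of the highest control. Trib3 rose 2.44-fold, from 102 ± 15.4 to 249.0 ± 25.3 CPM (log2 fold change 1.29 ± 0.1, adjusted p = 2.08e-08, edgeR), with 203 tested genes at a larger log2 fold change.

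Nupr1, a small stress-induced chromatin-associated protein, was at 31.7, 33.5 and 33.9 CPM in controls and at 51.3, 42.3 and 52.0 CPM in labelled knockouts. Replicate 2 was again the labelled knockout nearest to the controls, and it had the lowest level of its group for all 5 genes that rose. Nupr1 rose 1.47-fold, from 33.0 ± 1.16 to 48.6 ± 5.4 CPM (log2 fold change 0.56 ± 0.0986, adjusted p = 0.000204, edgeR).

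Ppp1r15a encodes GADD34, a regulatory subunit of the phosphatase that removes the phosphate from eIF2alpha and ends the response. Ppp1r15a was at 93.5, 79.5 and 102 CPM in controls and at 97.0, 89.6 and 125 CPM in labelled knockouts. The groups overlapped, and the within-group SD of 0.219 on the log2 scale was the widest of the 9 tested genes (median over all tested genes 0.14). Its log2 fold change of 0.18 ± 0.111 did not pass (adjusted p = 0.2, edgeR). The value ran from 0.03 without labelled knockout 3 to 0.28 without labelled knockout 2 (adjusted p = 0.861 and 0.0503). With the same length and GC offsets, it was called as higher (0.29, adjusted p = 0.0239).

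Sesn2, a sestrin that restrains mTORC1 when leucine is short and is also a known p53 target, was at 109, 93.5 and 92.4 CPM in controls and at 98.5, 84.6 and 84.0 CPM in labelled knockouts. In both groups replicate 1 was the highest, and the groups overlapped. The log2 fold change of Sesn2 was -0.14 ± 0.0866 (adjusted p = 0.194, edgeR), which passed without labelled knockout 1 (-0.22, adjusted p = 0.0492) and was -0.05 without control 1 (adjusted p = 0.71).

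Chac1, an enzyme that breaks down glutathione and a well-known target of the pathway, was close to the detection limit in every library. Controls held 22, 5 and 5 Chac1 reads and labelled knockouts 18, 5 and 6, too few for the main test. Summed over a group, this was 32 counts, or 0.539 CPM of unscaled library totals (95% exact Poisson interval 0.369 to 0.761, counting error only), in controls. In labelled knockouts it was 29 counts, or 0.566 CPM (0.379 to 0.813). A difference was not detectable at this depth. With no filter on low counts the log2 fold change of Chac1 was 0.05 (adjusted p = 0.962, edgeR).

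Gdf15, a secreted cytokine of the TGF-beta family that acts on the brainstem receptor GFRAL, changed most of the 10. Gdf15 was at 83.6, 79.9 and 77.3 CPM in controls and at 311, 285 and 290.2 CPM in labelled knockouts. Its within-group SD of 0.0615 on the log2 scale was the narrowest of the 9. Gdf15 rose 3.68-fold, from 80.3 ± 3.19 to 295 ± 13.6 CPM (log2 fold change 1.88 ± 0.0741, adjusted p = 3.86e-12, edgeR). Only 52 of 13403 tested genes had a larger log2 fold change. The receptor gene Gfral was at 0.14 ± 0.125 and 0.151 ± 0.0184 CPM and could not be tested, and its co-receptor gene Ret was not analysed here.

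**Figure D2:**
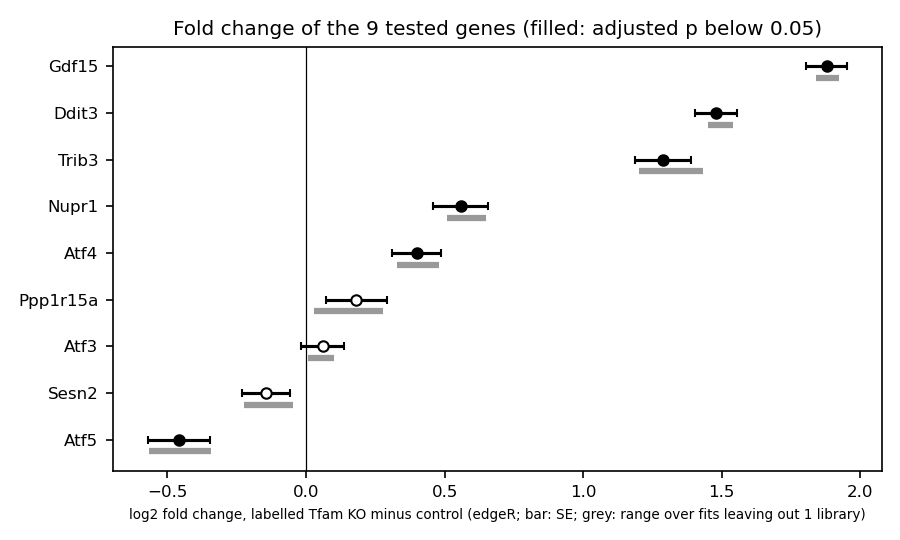
Log2 fold change, labelled knockout minus control, of the 9 tested genes with its SE (edgeR), and in grey the range over the 6 fits that each leave out 1 library. Filled points passed at an adjusted p below 0.05; Gdf15 stays between 1.84 and 1.92, whereas the range of Ppp1r15a runs from 0.03 to 0.28.

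The range over the fits without 1 library was 1.45 to 1.54 on the log2 scale for Ddit3, 1.20 to 1.43 for Trib3, 0.33 to 0.48 for Atf4, 0.51 to 0.65 for Nupr1 and -0.57 to -0.34 for Atf5. All 6 calls held in each of these 6 fits, with the highest adjusted p at 0.0218, for Atf5. No transcript of another gene in the GENCODE M21 set matched any of the 10 at 95% identity over 100 bases or more.

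Within a library, counts of each gene can be set against those of Atf4, a ratio that no scaling of libraries affects. Gdf15 stood at 13.7, 13.3 and 13.7 counts per 100 Atf4 counts in controls and at 36.3, 41.2 and 36.6 in labelled knockouts. Ddit3 stood at 9.84 ± 0.598 and 20.9 ± 1.33, and Trib3 at 17.1 ± 1.96 and 32.0 ± 1.5 (n = 3 each). These genes thus increased more than Atf4 did in each labelled knockout library. The ratio to Atf4 went down for Atf5, from 9.28 ± 1.06 to 5.16 ± 0.463, for Sesn2, from 16.6 ± 1.09 to 11.4 ± 0.821, and for Atf3, from 72.5 ± 4.87 to 57.7 ± 7.27. These 6 ratios did not overlap between groups. Each had a two-sided exact permutation p of 0.1, the smallest that 3 against 3 can give (0.133 after Benjamini-Hochberg adjustment over 8 ratios). Atf4 itself did not overlap in CPM, whereas Atf3 and Sesn2 did and were not called. A lower ratio to Atf4 therefore need not mean a lower level of the gene. How many of all genes have such ratios was not counted, and in CPM 52.9% of all genes did not overlap. The ratios of Nupr1, 5.6 ± 0.42 and 6.23 ± 0.295, and of Ppp1r15a, 15.5 ± 2.41 and 13.4 ± 2.26, overlapped (exact p = 0.2 and 0.4, adjusted 0.229 and 0.4).

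**Figure D3:**
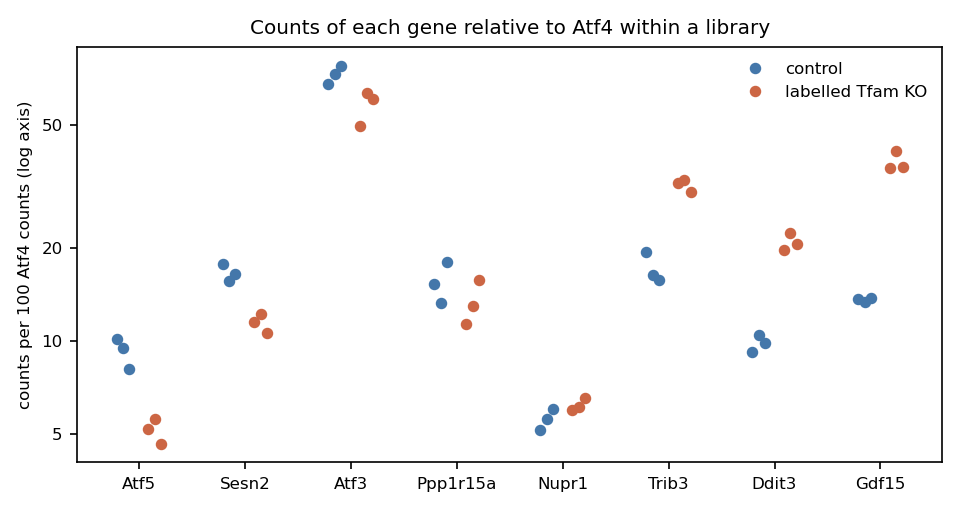
Counts of 8 genes per 100 Atf4 counts in the same library, on a log axis, with 1 point per library. Gdf15, Ddit3 and Trib3 are higher and Atf5, Sesn2 and Atf3 lower relative to Atf4 in the labelled knockout, while Nupr1 and Ppp1r15a overlap.

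Levels of different genes were compared per kilobase of exon. In controls the order was Atf4 (251 CPM per kilobase), Atf3 (199), Trib3 (47.8), Gdf15 (43.3), Ddit3 (34.0), Ppp1r15a (31.2), Sesn2 (28.3), Atf5 (27.6), Nupr1 (13.1) and Chac1 (0.298). Trib3 overlapped Gdf15 there, and each neighbouring pair from Ddit3 down to Atf5 overlapped as well. In labelled knockouts Gdf15 ranked 3 at 159 CPM per kilobase, above Trib3 (117) and Ddit3 (94.6), with no overlap among these 3. Atf4 (331) and Atf3 (207) stayed at the top, and Atf5 (20.1) and Nupr1 (19.3) overlapped near the bottom.

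**Figure D4:**
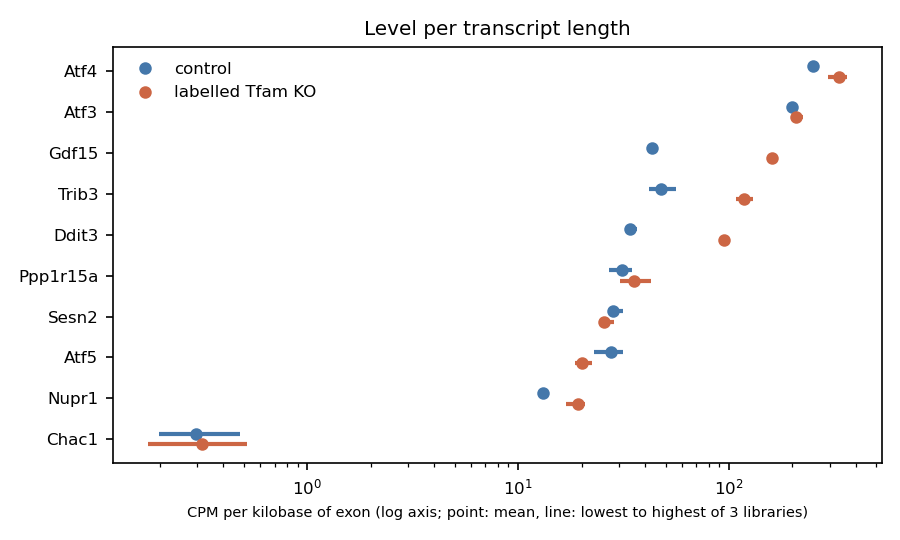
Level of each gene per kilobase of exon, on a log axis; points are means and lines run from the lowest to the highest of 3 libraries. Atf4 and Atf3 lead in both groups, Gdf15 moves from 43.3 to 159 CPM per kilobase, and Chac1 lies far below the rest.

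The gene lists that follow are to be read against all tested genes, of which 21.3% were called as higher and 22.9% as lower. Upstream of ATF4, the genes of the eIF2alpha kinases were called in both directions. Of 6 genes for kinases and for the relay from mitochondria, 3 rose, 1 fell and 2 did not pass. Eif2ak2, which encodes the double-stranded RNA sensor PKR and is interferon-inducible, rose 1.5-fold, from 47.2 ± 2.57 to 71.0 ± 7.1 CPM (adjusted p = 5.19e-05, edgeR). Dele1, whose product carries the mitochondrial stress signal to the kinase HRI, rose 1.31-fold, from 52.0 ± 4.88 to 68.2 ± 5.65 CPM. Eif2ak4, which encodes the amino acid sensor GCN2, fell by 0.36 on the log2 scale. Eif2ak1, which encodes HRI, was called as higher (log2 fold change 0.26, adjusted p = 0.04, edgeR). This call was lost in 5 of the 6 fits without 1 library, all but that without labelled knockout 1 (highest adjusted p = 0.163), and with DESeq2 (0.0635). The ER stress kinase gene Eif2ak3 (PERK) was at 15.6 ± 1.86 and 13.1 ± 0.717 CPM, and the protease gene Oma1 at 37.0 ± 1.3 and 35.6 ± 1.16 CPM. Of 7 measured subunits of eIF2 and its exchange factor eIF2B, 2 rose: Eif2b3 (log2 fold change 0.26) and Eif2s3x (0.19). The call for Eif2s3x was lost in each fit without 1 library apart from that without control 1 (adjusted p up to 0.118) and with length and GC offsets (0.0704), and without labelled knockout 1 Eif2b1 was called as lower (-0.23, adjusted p = 0.0468, edgeR).

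Paralogs of the 10 genes were called in both directions, 60% of those tested against 44.2% of all genes. Of 5 tested, 2 rose, 1 fell and 2 did not pass (median -0.05 on the log2 scale). Trib1, the Tribbles family member that directs C/EBPalpha to degradation, fell (24.2 ± 4.06 and 12.9 ± 4.89 CPM, log2 fold change -0.93), while Trib3 rose. Jdp2, a bZIP repressor related to Atf3, rose 1.44-fold. Nupr1l rose 2.2-fold at a very low level (0.823 ± 0.414 to 1.92 ± 0.234 CPM), a call lost with control 2, control 3, labelled knockout 2 or labelled knockout 3 left out (adjusted p up to 0.107). Ppp1r15b, the constitutive counterpart of Ppp1r15a, was at 171 ± 4.11 and 166 ± 0.385 CPM, and Sesn1 at 22.3 ± 1.22 and 19.8 ± 0.507 CPM.

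The bZIP genes whose products can pair with ATF4 or CHOP split in direction, with 5 of 12 higher and 5 lower (all genes: 21.3% and 22.9%). The C/EBP genes Cebpd (21.2 ± 0.789 to 51.4 ± 10.5 CPM) and Cebpg (62.3 ± 4.74 to 87.2 ± 5.24 CPM) rose, as did Nfe2l1 (157 ± 9.84 to 338 ± 6.51 CPM), a regulator of proteasome genes. Jun (log2 fold change -1.19), Cebpa (-0.94) and Junb (-0.47) fell. Cebpb was called as higher (0.61, adjusted p = 0.0235, edgeR), a call lost with DESeq2 (adjusted p = 0.241) and without labelled knockout 1 or 2 (up to 0.0645). Without labelled knockout 2, 3 genes of this list were higher.

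Known ATF4 targets for amino acid supply held genes of both directions, as did all tested genes (21.3% higher and 22.9% lower). Of 11 tested genes of amino acid and one-carbon synthesis, 4 rose, 2 fell and 5 did not pass (median 0.14 on the log2 scale). Asns, the asparagine synthetase, rose 1.6-fold (216 ± 30.3 to 346 ± 20.8 CPM). The mitochondrial folate enzymes Mthfd2 (1.61-fold) and Shmt2 (1.54-fold) rose, while Mthfd1l fell by 0.33 on the log2 scale. The serine synthesis genes Phgdh (1164 ± 92.6 and 1346 ± 121 CPM), Psat1 (464 ± 31.8 and 501 ± 18.7 CPM) and Psph (59.4 ± 9.48 and 65.9 ± 8.35 CPM) did not pass. Phgdh did pass in 7 alternatives, such as DESeq2 (log2 fold change 0.21, adjusted p = 0.0365) and the fits without control 1 or labelled knockout 2, and Psat1 with library totals and the authors' log2 table; with the latter 7 genes of this list were higher. The other 2 called were Pycr1 (0.40, higher) and Gpt2 (-0.22, lower). Pycr1 was lost without labelled knockout 3 (adjusted p = 0.0557), and Gpt2 with control 1, control 2, labelled knockout 2 or labelled knockout 3 left out (up to 0.225), which leaves 1 lower gene in each of these 4 fits. Gpt2 was also lost with library totals (-0.12, adjusted p = 0.266) and with the authors' log2 table (-0.11, adjusted p = 0.299).

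Transporters were 3 higher and 3 lower of 7 tested (all genes: 21.3% and 22.9%). Slc7a11, the cystine importer that feeds glutathione synthesis, rose 3.6-fold, from 59.5 ± 12.1 to 216 ± 20.6 CPM, and its partner Slc3a2 rose 1.28-fold. The glutamine transporter gene Slc38a2 fell by 0.40 on the log2 scale, and Slc7a3, at about 1 CPM or less in each group, by 1.93. Slc1a4 (0.35, higher) was lost with control 2, control 3, labelled knockout 1 or labelled knockout 3 left out (adjusted p up to 0.107), and Slc1a5 (-0.27, lower) without control 3, with library totals and with the authors' log2 table (0.0561 to 0.0734). Of 13 genes for cytosolic tRNA synthetases and tRNA export, 9 rose, none fell and 4 did not pass (median 0.25 on the log2 scale). Wars (1.46-fold) and Aars (1.45-fold) led, followed by the tRNA exporter Xpot (1.35-fold) and Yars (1.26-fold). Cars was called as lower with DESeq2, with a filter of 5 CPM and without labelled knockout 1 (-0.22 in the last, adjusted p = 0.0294, edgeR). The number of higher genes went down to 6 without control 3 or without labelled knockout 3.

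Other targets of ATF4 and CHOP were 3 higher, 3 lower and 3 not passing of 9 (all genes: 21.3% higher and 22.9% lower). Sqstm1, the autophagy receptor p62, which is also an NRF2 target, rose 3.44-fold (611 ± 23 to 2101 ± 35.1 CPM). Herpud1, of ER-associated degradation, rose 1.62-fold and Rab32 1.34-fold. Ero1l, an ER oxidase, fell from 511 ± 16.5 to 157 ± 2.04 CPM, and Ddit4, an mTORC1 inhibitor, from 45.3 ± 7.95 to 21.3 ± 2.47 CPM; both are also known hypoxia-response genes. Eif4ebp1 was called as lower (log2 fold change -0.28), a call lost with control 2, control 3 or labelled knockout 2 left out, with library totals and the authors' log2 table; the highest adjusted p was 0.0719. The proapoptotic genes Bbc3 (59.2 ± 5.31 and 54.4 ± 3.47 CPM) and Bcl2l11 (68.3 ± 3.21 and 63.6 ± 8.57 CPM) did not pass.

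Neighbouring stress programmes also held called genes, as most lists would with 44.2% of all tested genes called. The share was 70.6% in the ATF6 and IRE1 list and 55.6% in the mitochondrial chaperone and protease list. In the ATF6 and IRE1 arm of the ER stress response, 9 of 17 rose, 3 fell and 5 did not pass (median 0.28 on the log2 scale). Hspa5, the ER chaperone BiP, rose 1.83-fold (1092 ± 86.6 to 1996 ± 186 CPM), Hsp90b1 1.68-fold, Hyou1 1.53-fold and the sensor gene Ern1 1.5-fold. Calr (-0.39) and Edem1 (-0.32) fell, and Sdf2l1 (-0.29) was lost with control 2, control 3, labelled knockout 2 or labelled knockout 3 left out (adjusted p up to 0.257) and in 5 alternatives that keep all libraries (highest adjusted p = 0.612, with the length and GC offsets). Xbp1 was at 197 ± 8.14 and 208 ± 8.94 CPM, without separation of its spliced form. Without labelled knockout 3, 6 genes of this arm were higher. Of 9 mitochondrial chaperones and proteases, 5 rose and none fell. Hspd1 (1.41-fold), Hspa9 (1.4-fold), Lonp1 (1.33-fold) and Dnaja3 (1.28-fold) led, and Trap1 was called as lower without labelled knockout 1 (-0.21, adjusted p = 0.047, edgeR).

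Because Gdf15, Sesn2, Atf3 and Ppp1r15a are known to respond to p53 as well, p53 targets were read beside them. Of 10 tested, 3 rose, 3 fell and 4 did not pass (median -0.13 on the log2 scale). Among all genes 21.3% were higher and 22.9% lower. Cdkn1a, the cell cycle inhibitor p21, fell by 1.27 on the log2 scale (287 ± 22.6 to 119 ± 7.78 CPM), and Btg2 by 1.23, whereas Mdm2 (0.33) and Plk2 (0.32) rose. Bax was called as lower (-0.38, adjusted p = 0.00311, edgeR), a call lost with the length and GC offsets (-0.16, adjusted p = 0.0725). Zmat3 (0.32) was called as higher but lost in each fit without 1 library other than that without control 3 (adjusted p up to 0.156), with DESeq2 (0.0614) and with the length and GC offsets (0.0508).

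**Figure D5:**
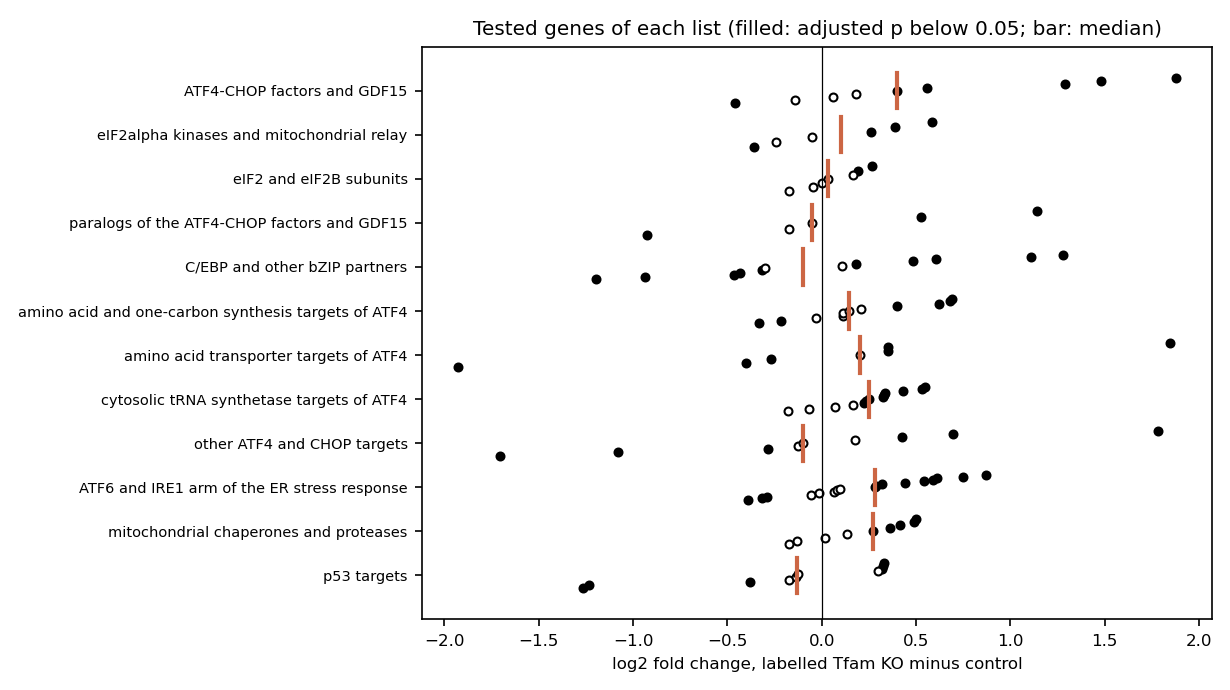
Log2 fold change, labelled knockout minus control, of each tested gene by list; filled points passed at an adjusted p below 0.05 (edgeR) and bars are list medians. The 13 tRNA synthetase and export genes have a median of 0.25, and the transporter list spans -1.93 to 1.85.

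Genes whose pattern over the 6 libraries was most like that of a member were sought by the Euclidean distance of centred log2 CPM among 9452 other named genes at 5 CPM or more. For Atf4 the nearest were Nthl1 (distance 0.0824), Coq4 (0.0835) and Srprb (0.0942). For Ddit3 they were Cpd (0.122), Isg15 (0.177) and Bcl3 (0.207), and for Gdf15 they were Sqstm1 (0.141), Slfn2 (0.149) and Nfkbia (0.168). Over 6 libraries in 2 groups, a short distance goes with a fold change of like size, such as 1.78 for Sqstm1 and 1.91 for Nfkbia on the log2 scale.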

How the data were processed

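Reads were counted per gene by the authors, and the deposited table holds whole-number counts, not normalized, for 17872 genes with at least 6 counts each over the 6 libraries. The submitters' processing notes name bcl2fastq 2.17, HISAT2 2.1.0, SAMtools 1.9, featureCounts 2.0.0 and GRCm39; the annotation and the treatment of reads that map to several places are not given in the sources used here. A second table deposited by the authors holds log2 values, which from the values equal log2 of the count scaled to a common total, plus 8.

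In R 4.3.3, edgeR 4.0.16 kept 13403 genes by filterByExpr and left 4469 with low counts untested. With TMM factors and no covariate, its quasi-likelihood test (glmQLFit, glmQLFTest) compared the groups, and p-values were adjusted over all tested genes (Benjamini-Hochberg). Dividing a log2 fold change by the root of its F statistic gave the SE. On simulated counts the edgeR step recovered 36% of 1.25-fold changes, 84% of 1.5-fold and 96% of 2-fold ones. A gene that did not pass may therefore still differ by a small amount. The simulation changed 50 genes at each fold, none of them at low counts, whereas 44.2% of tested genes were called in the data. The recovery rates need not hold for the data themselves. Alternatives used DESeq2 1.42.0, limma 3.58.1 (voom, and the authors' log2 table with their 8 replaced by 1), median-ratio factors, library totals, no mitochondrial genes, no filter, at least 5 CPM in 3 libraries, a replicate block, glmTreat and each library left out. Offsets for transcript length and GC content (mgcv 1.9.3) were added after the data were seen. Exon lengths and overlaps came from GENCODE M21 on GRCm38, used by symbol (99.5% of tested genes had a length).

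Members and lists were chosen with earlier results of these data known. Named genes were Tfam, all 10 members, up to 4 called genes per list with the largest change at 1 CPM or more, any gene of a list with 3 or fewer calls in a direction, and the 3 genes nearest in pattern to Atf4, Ddit3 and Gdf15. Other named genes that did not pass, and Cebpb, Cebpg and Junb among those that did, were chosen by role or level after their values were seen. Cell type markers were named where most abundant in their list, and others by level after their values were seen. Listed genes without values are not analysed here.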

Additional observations from a re-analysis of the deposited data

How the results depend on the processing

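The counts of 5 genes higher and 1 lower among the 9 tested held under 9 of the 11 alternatives that keep all libraries. Against a 1.5-fold change (glmTreat), 3 were higher and 0 lower, as Atf4 (0.40), Nupr1 (0.56) and Atf5 (-0.46) no longer passed. Under the same test 389 of all genes were higher and 705 lower, and 5 pathway list genes were higher and 5 lower. Without 1 library, 5 members were higher in each fit and 1 to 2 lower, the second being Sesn2 (log2 fold change -0.22 to -0.05, the latter -0.047, over these fits). Ppp1r15a passed as a further gene, making 6 higher, with offsets for length and GC content (0.29). Tfam passed as higher with library totals (0.24) and with limma on the authors' log2 table (0.25).

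Same-numbered libraries did not deviate together over all genes (correlations of -0.10, -0.11 and 0.04 for replicates 1 to 3). With 3 libraries per group this does not exclude a batch shared by number. With the replicate block 5255 genes were called against 5926, and members stayed at 5 higher and 1 lower. The block gave a narrower SE for Atf5, Trib3, Sesn2 and Ppp1r15a and a wider one for Atf4, Atf3, Ddit3, Nupr1 and Gdf15. The pathway genes Creld2, Eif2ak1, Eif2s3x, Gpt2, Iars, Nfe2l2, Sars, Sdf2l1 and Zmat3 lost their calls (adjusted p = 0.0536 to 0.0857, edgeR). Fos was called as lower with the block (adjusted p = 0.0451, edgeR). It was also called as lower without labelled knockout 3 (log2 fold change -0.81, adjusted p = 0.000644, edgeR). In the main fit Fos did not pass (-0.30, adjusted p = 0.327, edgeR). With library totals the median over all genes lay 0.10 higher (log2), without changing a member's direction. Depth left Chac1 untested; how it bears on the other members was not tested.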
